A study of Mus musculus with 144 samples.

Results

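The actin cytoskeleton genes described here are 46 protein-coding genes chosen by name for the part their products play in building, cutting, bundling, moving or anchoring actin filaments, out of 55364 genes in the deposited table. No measured value entered the choice of the members, although it was made with other results of these data known. The RNA came from single retinal microglia of the Iba1-EGFP mouse strain, sorted by flow cytometry, in which an Iba1 reporter labels microglia and other Iba1-expressing cells. The groups were PBS (mice of 10 to 14 weeks), ripasudil at 1 mg/kg (the low dose, mice of 14 weeks) and ripasudil at 10 mg/kg (the high dose, mice of 12 weeks), with 48 cells in each, 16 per plate on 3 plates. Ripasudil inhibits the kinases ROCK1 and ROCK2, and the series title concerns GPR84, TNF and IL-1α through ROCK after optic nerve injury. The labels did not say whether these eyes were injured, how ripasudil was given, or which animal a cell came from. Each group therefore counts as 1 sample: there is no test, no p-value, and the spread between animals is unknown. Dose, age and position on the plate (each group had its own block of wells) cannot be told apart.

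Actin monomers assemble into filaments that shape a cell and let it move. Cofilin cuts old filaments, profilin and thymosins hold and deliver monomers, the Arp2/3 complex starts branches, and capping proteins stop growth at filament ends. Tropomyosins bind along filaments, and non-muscle myosin II makes filaments contract. ROCK acts on both ends of this machinery, since it promotes phosphorylation of the myosin light chains and, through LIM kinases, holds cofilin inactive. The pool of free actin also governs transcription: when monomers are used up, MRTF cofactors enter the nucleus and join the factor SRF, which binds CArG boxes in the promoters of many cytoskeletal genes. Microglia use this machinery to extend and retract their processes and to engulf debris.

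CArG boxes were looked for in the members' promoters because SRF is a member and several of the other members are classical SRF targets. The window ran from 250 bases before to 50 after each annotated start (RefSeq sequence, GRCm38.p6), and the core box was searched as 2 C, 6 A or T and 2 G, a pattern that reads the same on both strands. Of the 46 members, 42 had a window, and 6 of these (14.3%) held a box, against 488 of 27025 genes (1.81%). The stretches that hold them are given on the strand of the gene, 5′ to 3′, with the box in capitals.
Arpc4 (chr6:113377863-113377892, plus strand): CCTAATTTGGtgcccaacctgaggtcgggc
Cnn2 (chr10:79988524-79988573, plus strand): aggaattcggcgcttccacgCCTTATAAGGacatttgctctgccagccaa
Myl6 (chr10:128493030-128493079, minus strand): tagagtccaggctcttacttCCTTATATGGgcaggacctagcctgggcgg
Actg1 (chr11:120348556-120348605, minus strand): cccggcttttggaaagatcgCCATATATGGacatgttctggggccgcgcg
Vcl (chr14:20929151-20929200, plus strand): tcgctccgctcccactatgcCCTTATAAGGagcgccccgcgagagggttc
Srf (chr17:46556195-46556264, minus strand): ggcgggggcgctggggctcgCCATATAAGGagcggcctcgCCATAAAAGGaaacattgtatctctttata
The boxes of Cnn2, Myl6 and Actg1 begin 56, 50 and 90 bases before the start, those of Srf 82 and 62, and those of Vcl and Arpc4 227 and 250. A match describes these letters only, and the lack of a match in the other 36 members says nothing about SRF. Of the members' 49 windows, 19 had a start more than 200 bases from the 5′ end of the gene's span. Since classical SRF targets were among the members chosen, their higher share of boxes is not a separate result.

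Expression is in FPKM, the reads of a gene scaled to its length and to all reads that the cell assigned to genes, and detection means an FPKM of 1 or more. Cells with at least 1000 detected genes were kept, which left 46 PBS, 47 low-dose and 47 high-dose cells. By inference from FPKM and gene length, since read counts were not given, the cells held 30204 to 4668733 assigned reads (median 1614850). Csf1r and C1qa, which mark microglia and other macrophages, were detected in 140 of 140 kept cells, and Tmem119 and P2ry12 in 124 and 109. At least 3 of 10 rod photoreceptor markers were present in 6 PBS, 7 low-dose and 11 high-dose cells, and the mean of their summed FPKM was 14.98, 265 and 903. At least 3 of 8 neutrophil markers were present in 10, 8 and 8 cells, and 3 or more of 6 border macrophage markers in 3, 4 and 3. Of the pericyte and smooth muscle markers, whose cells are rich in actin, Myl9 was at 0 in every kept cell and 2 cells, both low-dose, held 3 or more of the 8. The number of detected genes differed between the groups, with medians of 3143 in PBS cells and of 2418 and 2264 at the low and high dose. This bears on each result below, so that values for all genes, and values adjusted for the number of detected genes, are given for the members together, and adjusted values for single genes where they are named as such.

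Genes for actin and for proteins that bind its monomers held most of the members' summed FPKM. A level is the mean over kept cells of log2(FPKM + 1), and FPKM is scaled to gene length. Comparisons of levels between genes therefore depend on the deposited lengths, such as 1371 bases for Tmsb4x and 9504 for Lcp1. Tmsb4x, which encodes the monomer-holding peptide thymosin β4, had a level of 12.82 (SD 1.15, 140 cells) and made up 54.9% of the members' summed FPKM. Actb, cytoplasmic β-actin, followed at 9.69 (SD 1.69) with 7.51% of the sum. Pfn1, profilin 1, and Cfl1, cofilin 1, stood at 8.47 and 8.46, a gap far inside their SDs of 2.42 and 2.23. Actg1, cytoplasmic γ-actin, and Arpc2, a subunit of the Arp2/3 complex, came next at 7.29 and 7.21, again with SDs (3.34 and 3.30) above the gap. At the other end, the factor Srf was detected in 6 of 140 cells, the crosslinker Actn1 in 6 and the adhesion protein Vcl in 2. These 3 were the members found in fewer than 10% of kept cells. They are left out of the counts and medians over members below, which cover the other 43.

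**Figure D1:**
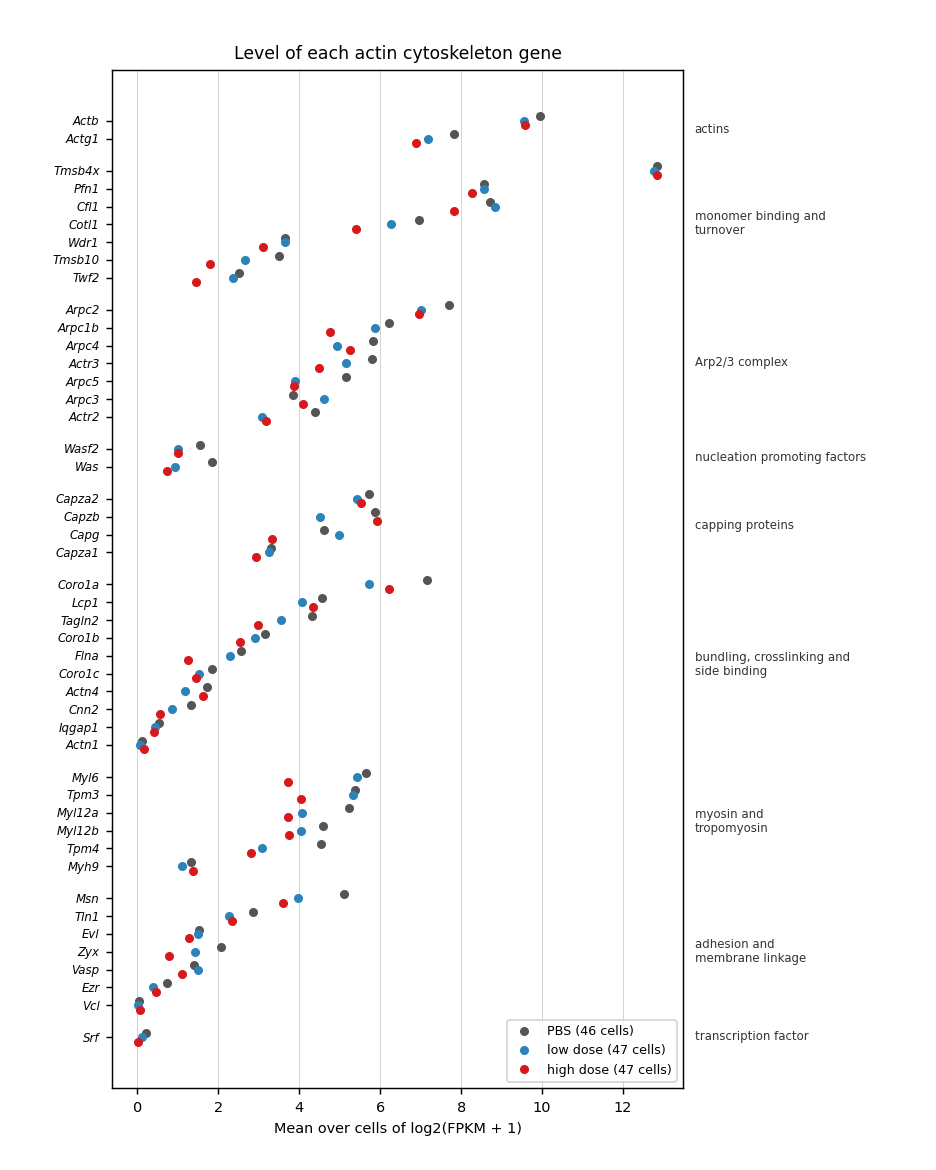
The mean log2(FPKM + 1) of each of the 46 genes (x axis) is shown in PBS, low-dose and high-dose cells, ordered by role and then by level over all kept cells. Tmsb4x stands alone at 12.82 over all cells, while Actn1, Vcl and Srf lie near 0.

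At both doses most measured actin genes had a lower mean log2(FPKM + 1) than in PBS cells. Among them were the light chain Myl12a, the tropomyosin Tpm4 and the membrane linker Msn. The light chain Myl6 was lower at the high dose and close to PBS at the low dose (-0.21). Tmsb4x and the summed FPKM were nearly level. A difference is the difference between groups of mean log2(FPKM + 1), and the same value was computed within each plate. At the high dose the median difference of the 43 measured members from PBS was -0.78, with plate values of -1.13, -0.62 and -0.84, against a median of -0.29 over the 8242 genes that passed the same filter. Of the members 40 were below 0 (93%, all genes 78.9%). A difference of -1 or less that was also below 0 on each plate was found for 14 members (32.6%, all genes 8.08%), and none was higher by 1 or more and above 0 on each plate (all genes 0.0485%). At the low dose the median was -0.49, with plate values of -0.50, -0.51 and -0.59, against -0.11 for all genes. Of the members 37 were below 0 (86%, all genes 62.6%), 6 were lower by 1 or more on the same rule (14%, all genes 2.92%) and none was higher by 1 or more (all genes 0.303%). Between the doses the median of the members was -0.29, high minus low, against -0.17 for all genes, with 31 members below 0 (72.1%, all genes 69.7%). A further count was of members lower by 1 or more at the high than at the low dose, 6 of 43 (14%, all genes 3.36%), and 1 was higher, Capzb (all genes 0.279%). The comparisons with PBS share the PBS cells. Without the cells that held 3 or more rod markers, the medians from PBS were -0.54 and -0.72.

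Differences of -1 or less were more frequent among genes found in at least 50% of kept cells than among rarer ones. The background was therefore also taken among the former. At the high dose 11 of the 29 members in that range were lower by 1 or more (37.9%), against 248 of 1517 genes (16.3%), and their median was -0.93 against -0.36. At the low dose the same counts were 6 of 29 (20.7%) and 100 of 1517 (6.59%), with medians of -0.60 and -0.08. Between the doses the medians were -0.30 and -0.29. The pooled range hides a limit. Of the 8 members found in at least 90% of kept cells, 1 (12.5%) was lower by 1 or more at each dose. That is near the share of all genes there, 8.75% at the high and 7.08% at the low dose. The medians of these 8 were -0.82 and -0.53, against -0.28 and -0.07.

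The gap to the other genes was smaller in each of the following computations. The first adjusted for the number of detected genes in each cell by a linear term. The members' median was then -0.28 at the low and -0.23 at the high dose, against 0.03 and -0.02 for all genes. Between the doses it was -0.01, against -0.05 for all genes. So adjusted, 30 of the 43 members were below 0 at each dose (69.8%, all genes 46.8% at the low and 51.8% at the high dose). The adjustment took 10 members from below to above 0 at the high dose: Wdr1, Arpc4, Capza1, Capza2, Lcp1, Actn4, Coro1b, Coro1c, Vasp and Evl. For 7 members it did so at the low dose. In cells with at least 2000 detected genes it was -0.11 and -0.29, against 0.07 and -0.12. As the log2 ratio of mean FPKM, which weights cells with high values, it was -0.07 and -0.16, against 0.05 and -0.06. The ratio took 14 members from below to above 0 at each dose. Below 0 on the ratio were 25 of the 43 members at the low dose (58.1%, all genes 47.5%). At the high dose 26 were (60.5%, all genes 52.5%). On that ratio 6 of the 43 members (14%) met the rule for lower at the high dose, against 12.3% of all genes, a share near the background.

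**Figure D2:**
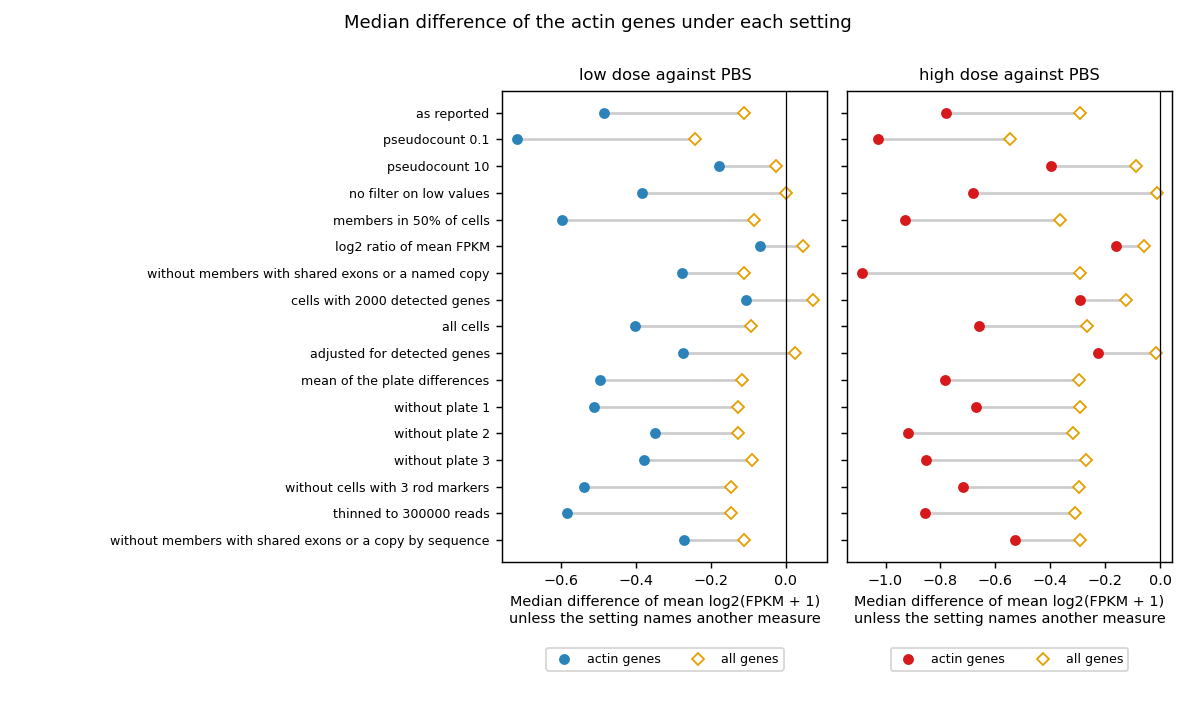
The median difference from PBS is shown for the actin genes (filled) and for all genes of the same filter (open diamonds), under each way of computing it. The actin genes lie to the left of all genes in every row of both panels, and the gap is narrowest for the ratio of mean FPKM.

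The summed FPKM of the 46 genes had close medians in the groups. It ran from 2168 to 38308 with a median of 16078 in PBS cells, from 1406 to 53598 with a median of 14745 in low-dose cells and from 3336 to 40403 with a median of 14692 in high-dose cells. The members took a median of 3.58%, 3.32% and 3.15% of the assigned reads. The difference in mean log2 of the sum was 0.02 at the low dose, -0.01 at the high dose and -0.03 between the doses, and each of these took the other sign in at least 1 alternative computation. The number of members detected in a cell had medians of 29, 23 and 25. Each cell was also thinned to 300000 reads, which left out 5, 1 and 3 cells. There a member counted with 1 read or more, and the medians were 32, 27.5 and 28. The rules differ, so these medians cannot be set against those at an FPKM of 1. Across the 140 cells the number of members at an FPKM of 1 or more went with the number of detected genes (Spearman's rho 0.87, Pearson's r 0.82, both counted in the same libraries). The log2 sum had a rho of -0.31 with the number of detected genes.

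**Figure D3:**
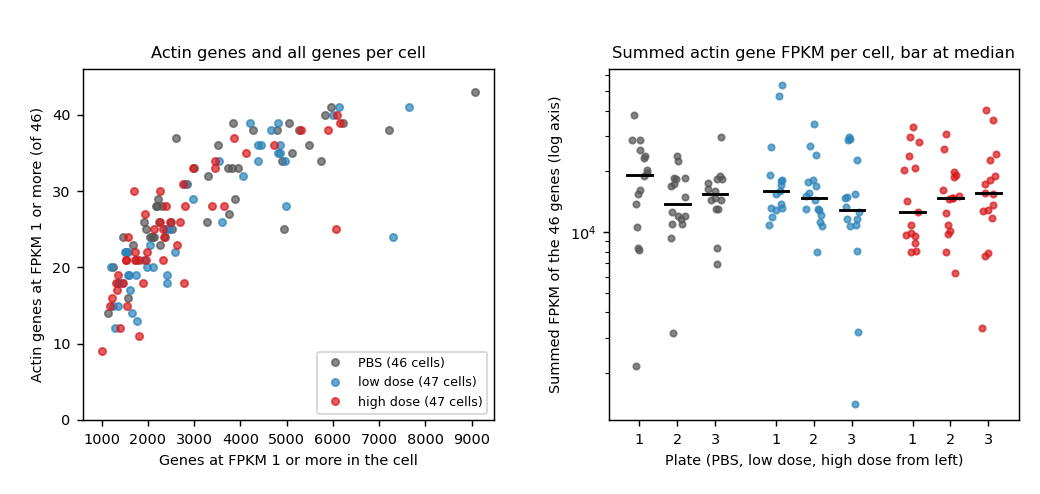
Left, the number of the 46 actin genes at an FPKM of 1 or more against the number of all such genes in each kept cell; right, the summed FPKM of the 46 genes per cell on a log axis, by group and plate, with a bar at the median. The number of actin genes follows the number of genes in every group, and the group medians of the sum lie between 14692 and 16078.

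Both actins had lower means at both doses. Actb (chr5:142903115-142906754, minus strand) ran from 30.8 to 3512 FPKM with a median of 1157 in PBS cells, from 5.09 to 2886 with a median of 1144 in low-dose cells and from 23.1 to 6128 with a median of 1141 in high-dose cells. The groups overlapped, and so they did for each member named below, although the highest values often differed several-fold between groups. Its difference was -0.42 at the low and -0.37 at the high dose, and above 0 on plate 2 at both (0.24 and 0.38). Actg1 (chr11:120345690-120348542, minus strand), which carries one of the CArG boxes shown above, had medians of 556, 592 and 348 FPKM. Its difference was -0.64 at the low and -0.93 at the high dose, where the plates gave -0.81, -1.12 and -0.83. After adjustment for detected genes the values were -0.26 and -0.22. In the genome 11 processed copies match it at 90% identity or more, so reads could be divided among them; with the copies' reads added, 22.3% of the total, the high-dose difference was -0.94.

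Among the proteins that bind monomers and turn filaments over, Tmsb4x (chrX:167207093-167209315, minus strand) was nearly level. Its FPKM ran from 1180 to 37305 in PBS cells with a median of 7800, and the medians were 7156 at the low and 7211 at the high dose. Its differences were -0.08 and -0.01, with plate values of both signs. Its paralog Tmsb10, thymosin β10, was 1 of the members with the largest differences at the high dose. It had medians of 12.2, 2.51 and 0.49 FPKM in PBS, low-dose and high-dose cells, and maxima of 512, 129 and 156. The high-dose difference was -1.69, with -2.44, -0.99 and -1.67 on the plates, and the ratio of mean FPKM was 0.29. The low-dose values were -0.84 and 0.52. It was detected in 37 of 46 PBS cells (80.4%, exact Clopper-Pearson 95% interval 66.1 to 90.6), 27 of 47 low-dose cells (57.4%, 42.2 to 71.7) and 21 of 47 high-dose cells (44.7%, 30.2 to 59.9). Thinned to 300000 reads and counted at 1 read or more, the shares were 82.9%, 58.7% and 43.2%. These intervals, and those that follow, cover counting error only. Adjusted for detected genes, Tmsb10 remained at -1.49 and -0.77.

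Cfl1 (chr19:5490455-5495201, plus strand), the cofilin that ROCK signalling restrains through LIM kinases, was lower in high-dose cells than in both other groups. Its FPKM had medians of 580, 567 and 388, and lowest values of 3.43, 3.17 and 0.28. The difference was 0.13 in low-dose cells, with plate values of both signs, and -0.89 in high-dose cells, with -1.41, -0.62 and -0.68 on the plates. Between the doses it was -1.02, and -0.98 after adjustment. An FPKM of 10 or more was found in 95.7% of PBS, 93.6% of low-dose and 85.1% of high-dose cells, and the mean FPKM at the high dose was 0.81 of that in PBS. Pfn1 (chr11:70651850-70654644, minus strand) had medians of 586, 646 and 524 FPKM and differences of 0.00 and -0.28. Cotl1, coactosin-like protein, which binds filaments and is counted with the turnover proteins, had medians of 226, 240 and 82.98 FPKM. Its high-dose difference was -1.55, with -2.61, -0.62 and -1.61 on the plates. The mean FPKM of Cotl1 went the other way, at 1.23 times that of PBS, and the highest high-dose cell held 9955 FPKM against 1685 in PBS. Wdr1, a helper of cofilin, had differences of 0.01 and -0.54 (0.39 and 0.33 adjusted), and Twf2, a twinfilin, -0.15 and -1.06 with plate values of both signs.

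The 7 subunits of the Arp2/3 complex had unequal differences. At the high dose 6 of 7 were below 0, near the share of all genes (78.9%), with a median of -1.20. Of them 2, Arpc1b and Actr3, were lower by 1 or more with the same sign on each plate (all genes 8.08%). The low-dose count was also 6 of 7 (all genes 62.6%), with a median of -0.70, and Actr2 met that rule (all genes 2.92%). Arpc1b, a subunit rich in blood-derived cells and macrophages, ran from 0 to 831 FPKM with a median of 148 in PBS cells, from 0 to 2014 with a median of 140 in low-dose cells and from 0.13 to 728 with a median of 17.2 in high-dose cells. Its high-dose difference was -1.44 from PBS (plates -2.18, -0.85 and -1.31) and -1.09 from the low dose. Actr2 had medians of 30.4, 8.88 and 10.0 FPKM, a low-dose difference of -1.32 (plates -1.42, -0.75 and -1.72) and a high-dose difference of -1.20 that was above 0 on plate 2. It was detected in 39 of 46 PBS cells (84.8%, 71.1 to 93.7), 30 of 47 low-dose cells (63.8%, 48.5 to 77.3) and 31 of 47 high-dose cells (66.0%, 50.7 to 79.1). Arpc2 had medians of 453, 356 and 301 FPKM and differences of -0.70 and -0.75 (-0.50 and -0.17 adjusted). Its mean FPKM at the high dose went the other way, at 1.33 times that of PBS, with a highest cell of 8725 FPKM against 2858.

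Arpc3 was the only subunit with a mean log2(FPKM + 1) above that of PBS cells. Its FPKM ran from 0 to 366 with a median of 9.95 in PBS cells, from 0 to 1041 with a median of 88.5 in low-dose cells and from 0 to 1093 with a median of 15.7 in high-dose cells. The difference was 0.76 at the low dose, above 0 on each plate (0.98, 0.89 and 0.43), and 0.24 at the high dose with plate 1 at -0.73. Adjusted for detected genes these values were 1.09 and 1.03. The share of cells with Arpc3 was 71.7%, 68.1% and 63.8%, so its mean was higher while no more cells held it. With the cells of 3 or more rod markers left out, the low-dose difference of Arpc3 was 0.14. The mean FPKM of Arpc3 was 2.64 and 1.98 times that of PBS at the low and high dose. That of Arpc4 was also higher, at 1.47 and 2.06 times, although its differences were -0.89 and -0.55. Summed per cell over the 7 subunits, the complex had medians of 1416, 1169 and 1282 FPKM, and differences of -0.02 and -0.23, with plate values of both signs for the former. The 2 activators of the complex on the list, Was and Wasf2, were detected in 19 and 18 of 46 PBS cells and in 7 and 10 of 47 high-dose cells. Was had differences of -0.91 and -1.11 with the same sign on each plate, and Wasf2 of -0.52 and -0.53.

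**Figure D4:**
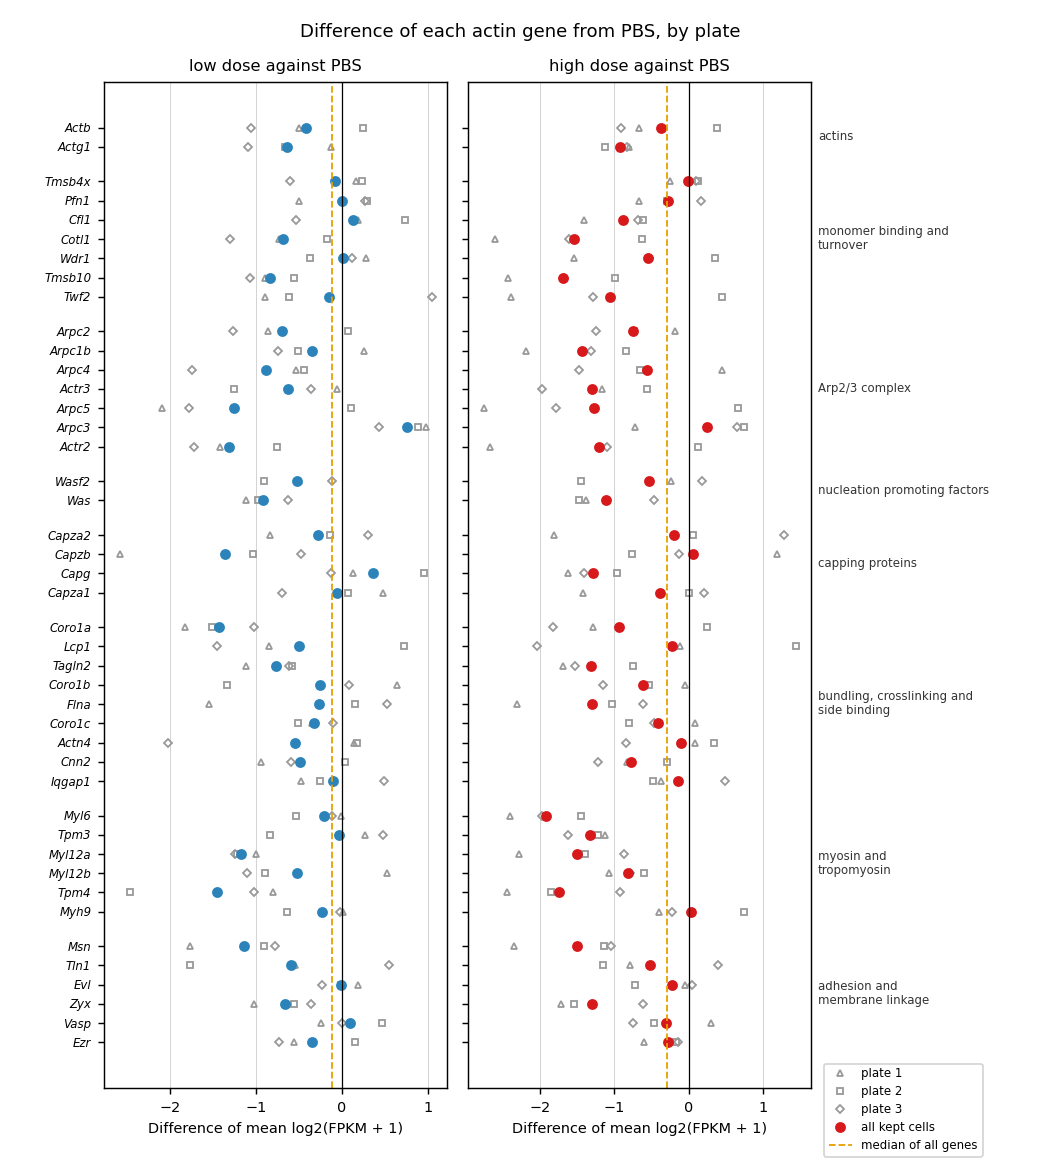
The difference from PBS of each of the 43 measured genes is shown for the low dose (left) and the high dose (right), with filled points for all kept cells, open symbols for the 3 plates, and a dashed line at the median of all genes. Myl6, Tpm4 and Tmsb10 lie farthest left at the high dose, with every plate below 0, and Arpc3 lies to the right of 0 in both panels.

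Of the filament-capping genes, 2 differed between the doses in opposite directions. Capzb, the β subunit of capping protein, ran from 0 to 1319 FPKM with a median of 145 in PBS cells, from 0 to 1005 with a median of 37.7 in low-dose cells and from 0.12 to 2736 with a median of 145 in high-dose cells. Its difference was -1.36 at the low dose (plates -2.59, -1.03 and -0.48) and 0.05 at the high dose, so that it stood 1.41 higher at the high than at the low dose. On plate 1 this contrast was 3.77, and on plates 2 and 3 it was 0.26 and 0.34. Capg, a capping protein of macrophages that responds to calcium, was lower at the high than at the low dose. It ran from 0 to 438 FPKM with a median of 54.1 in PBS cells, from 0 to 4879 with a median of 35.3 in low-dose cells and from 0 to 1375 with a median of 3.87 in high-dose cells. Its difference was 0.36 at the low and -1.29 at the high dose, and -1.65 between them, with -1.76, -1.91 and -1.28 on the plates. Adjusted for detected genes, the last value was -1.42. The share of cells with Capg at 1 or more was 78.3%, 72.3% and 72.3%, whereas the share at 10 or more was 54.3%, 57.4% and 36.2%. The α subunits Capza1 and Capza2 had differences between -0.38 and -0.06, with plate values of both signs, and between 0.00 and 0.39 after adjustment.

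Of the 10 bundling, crosslinking and side-binding genes 9 were measured, and all 9 were below 0 at both doses, beside 62.6% and 78.9% of all genes. After adjustment for detected genes 7 were below 0 at the low and 5 at the high dose, where Lcp1 (0.30), Actn4 (0.53), Coro1b (0.08) and Coro1c (0.10) were above 0. Coro1a, the coronin of leukocytes, had medians of 293, 209 and 248 FPKM. Its low-dose difference was -1.44 (plates -1.83, -1.51 and -1.02), and its high-dose difference of -0.94 was above 0 on plate 2. Coro1a at 10 FPKM or more was found in 80.4% of PBS, 59.6% of low-dose and 66.0% of high-dose cells, while 97.8%, 91.5% and 93.6% held at least 1. Flna, the crosslinker filamin A, had medians of 0.93, 0.20 and 0.18 FPKM, a low-dose difference of -0.27 with plate values of both signs and a high-dose difference of -1.31 (plates -2.31, -1.03 and -0.61). It was detected in 22 of 46 PBS cells (47.8%, 32.9 to 63.1) and in 13 of 47 high-dose cells (27.7%, 15.6 to 42.6). Tagln2, transgelin 2, stood at -0.76 and -1.31, and at -0.30 and -0.35 after adjustment. Actn4, an α-actinin, stood at -0.54 and -0.10, and was 0.45 higher at the high than at the low dose with plate values of both signs. Lcp1, the leukocyte bundler L-plastin, had differences of -0.50 and -0.22 and, of the members at the high dose, the widest spread between plates, from -2.05 to 1.44.

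The myosin and tropomyosin genes had the lowest median of the roles at the high dose, -1.42 over 6 members (all genes -0.29). Of the 6, 4 were lower by 1 or more with each plate below 0, against 8.08% of all genes. Summed per cell, the 6 genes had medians of 533, 447 and 341 FPKM, and the high-dose difference of this sum was -0.96 (plates -1.60, -0.47 and -0.89), and -0.79 after adjustment. The low-dose difference of the sum was -0.02 with plate values of both signs. Myl6, the essential light chain of non-muscle myosin II, had the largest difference of all 43 members at the high dose. It lies at chr10:128490860-128494145 on the minus strand, and the CArG box shown above belongs to an annotated start 1136 bases inside this span. Its FPKM ran from 0 to 963 with a median of 114 in PBS cells, from 0 to 875 with a median of 102 in low-dose cells and from 0 to 580 with a median of 6.64 in high-dose cells. PBS and low-dose cells were thus close to each other, with a difference of -0.21, and the high-dose cells were lower than both. The difference from PBS was -1.91 (plates -2.40, -1.45 and -1.97), that from the low dose was -1.70 (plates -2.39, -0.91 and -1.85), and the mean FPKM was 0.44 of that in PBS. Adjusted for detected genes these values were -1.39 and -1.46. Myl6 was detected in 40 of 46 PBS cells (87.0%, 73.7 to 95.1), 40 of 47 low-dose cells (85.1%, 71.7 to 93.8) and 30 of 47 high-dose cells (63.8%, 48.5 to 77.3). Thinned to 300000 reads and counted at 1 read or more, the shares were 92.7%, 89.1% and 68.2%. The 5 processed copies of Myl6 took 9.57% of the reads of gene and copies, and with them the high-dose difference was -1.93.

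The regulatory light chains, whose phosphorylation ROCK promotes, are encoded by the adjacent genes Myl12a (chr17:70993656-71002878) and Myl12b (chr17:70973133-70990890), both on the minus strand. Myl12a had medians of 81.4, 28.1 and 7.13 FPKM and was lower on every plate at both doses, with differences of -1.17 and -1.50. Myl12b had medians of 37.9, 41.7 and 9.22 FPKM and differences of -0.52, with plate 1 above 0, and -0.82, with every plate below 0. The 2 genes share exon bases with 1 further gene model and resemble each other in sequence, so that reads may have been assigned to either. Their levels had the highest correlation of the 406 pairs among the 29 members found in 50% of cells (Spearman's rho 0.55, 140 cells, median of all pairs 0.16). The heavy chain Myh9 stood nearer to PBS: its median FPKM was 0.72, 0.33 and 0.25, its differences were -0.23 and 0.04, and plate values had both signs.

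Both tropomyosins were lower at the high dose, and Tpm4 at the low dose too. Tpm4 had medians of 34.6, 1.35 and 0.76 FPKM. Its differences were -1.46 at the low dose (plates -0.80, -2.46 and -1.03), the largest of all 43 members there, and -1.75 at the high dose (plates -2.45, -1.85 and -0.93). It was detected in 37 of 46 PBS cells (80.4%, 66.1 to 90.6), 27 of 47 low-dose cells (57.4%, 42.2 to 71.7) and 23 of 47 high-dose cells (48.9%, 34.1 to 63.9). The ratio of mean FPKM was 1.22 at the low and 0.76 at the high dose, so that at the low dose the mean FPKM was higher and the mean log2 level lower, with a highest cell of 1679 FPKM against 692 in PBS. Tpm3 had medians of 103, 71.5 and 11.2 FPKM. It was level at the low dose (-0.04) and stood at -1.33 at the high dose, below 0 on each plate, and at 0.22 and -0.75 after adjustment. Its mean FPKM at the high dose was 0.99 of that in PBS.

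Of the 7 adhesion and membrane linkage genes 6 were measured. Msn, moesin, which ties filaments to the cell membrane, ran from 0.09 to 1296 FPKM with a median of 68.1 in PBS cells, from 0.11 to 1193 with a median of 9.62 in low-dose cells and from 0 to 940 with a median of 2.60 in high-dose cells. Its differences were -1.14 and -1.50, below 0 on every plate, and -0.75 and -0.75 after adjustment. It was detected in 38 of 46 PBS cells (82.6%, 68.6 to 92.2), 27 of 47 low-dose cells (57.4%, 42.2 to 71.7) and 29 of 47 high-dose cells (61.7%, 46.4 to 75.5). Zyx, the focal adhesion protein zyxin, stood at -0.66 and -1.31, below 0 on every plate, and was found in 18 of 46 PBS and 7 of 47 high-dose cells. Tln1, Vasp, Evl and Ezr had differences between -0.60 and 0.10. Vcl and Srf, each with a CArG box shown above, were too rarely detected to compare, Vcl in 1, 0 and 1 cells (0 of 47 has an exact upper bound of 7.55%) and Srf in 3, 2 and 1 cells of the groups. Of the 4 measured members with a box, Actg1, Arpc4, Cnn2 and Myl6, each was below 0 at both doses. So were most of the measured members without one, and 62.6% and 78.9% of all genes at the low and high dose. At the high dose Arpc4 was above 0 on plate 1 (0.45) and after adjustment (0.02). There Actg1, Cnn2 and Myl6 were below 0 on each plate and after adjustment.

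Nearest to or above PBS at the high dose, with differences between -0.01 and 0.24, were 4 members: Tmsb4x, Capzb, Myh9 and Arpc3. The 6 genes lower at the high than at the low dose by 1 or more were Myl6, Capg, Tpm3, Arpc1b, Flna and Cfl1, and each of them was below 0 in that contrast on every plate. Of these 6, none differed from PBS by 1 or more at the low dose. On the rule with plates, 2.92% of all genes were lower there and 0.303% higher. Since these genes were picked in part by their low-dose values, this is not a separate result. The 6 genes lower by 1 or more and below 0 on each plate at the low dose were Tpm4, Coro1a, Capzb, Actr2, Myl12a and Msn. Of those, Tpm4, Myl12a and Msn were also lower by 1 or more with each plate below 0 at the high dose, whereas Coro1a and Actr2 were above 0 on plate 2 and Capzb was level. Arpc5, at -1.25 and -1.27, was above 0 on plate 2 at both doses and did not meet the rule.

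Genes around the members were given by lists with the same background, in which 62.6% of all genes were below 0 at the low and 78.9% at the high dose. Of 22 genes of the ROCK pathway 13 were measured, and their median was -0.23 at the low and -0.42 at the high dose, with 8 (61.5%) and 11 (84.6%) below 0, shares near that background. The adjusted medians were 0.01 and -0.19. The targets of the drug were rarely detected: Rock1 was found in 30.4% of PBS, 19.1% of low-dose and 10.6% of high-dose cells, and Rock2 in 23.9%, 6.38% and 10.6%. Rhob, a small GTPase, had differences of 0.06 and -1.14, the phosphatase subunit Ppp1cb -0.64 and 0.32, and the guanine nucleotide exchange factors Arhgef1 and Arhgef2 -0.65 and -0.81, and -0.29 and -0.89. Of 19 genes leading from Rac and Cdc42 to Arp2/3 18 were measured, with medians of -0.24 and -0.38. Their adjusted medians were 0.00 and 0.01, and those of the log2 ratio of mean FPKM were above 0, at 0.35 and 0.23. Arhgdib, an inhibitor of small GTPases in blood-derived cells, was higher at the high dose by 1.08, above 0 on each plate (0.37, 0.58 and 2.30). Cyfip1, Nckap1l and Abi1, parts of the WAVE complex, stood at -1.56 and -1.02, -0.61 and -1.22, and -0.64 and -0.30. Of 29 other actin-binding proteins 21 were measured, with medians of -0.44 and -0.73, and of -0.20 and -0.17 after adjustment. Dstn, destrin, a relative of cofilin, stood at -1.29 and -1.84 with every plate below 0. The coronin Coro7 stood at -0.88 and -0.88, and the cortactin relative Hcls1 at -0.21 and -1.21.

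Of 19 integrin adhesion genes 17 were measured, with medians of -0.19 and -0.63, and 5 (29.4%, all genes 8.08%) were lower by 1 or more with each plate below 0 at the high dose. Their adjusted medians were -0.01 and -0.10, and those of the ratio of mean FPKM were above 0, at 0.37 and 0.26. The integrin Itgb2 stood at -1.27 and -1.83, its partners Skap2 at -0.84 and -0.11 and Fermt3 at 0.17 and -1.20. Of 14 tubulin cytoskeleton genes 13 were measured, with medians of -0.36 and -0.85, and all 13 were below 0 at the high dose, 6 of them (46.2%) lower by 1 or more on the same rule. Adjusted, the medians were -0.15 and -0.30. Tubb5, a β-tubulin, stood at -1.12 and -2.02 and the tubulin-binding Stmn1 at -0.96 and -2.41. Map4, which binds microtubules, stood at -0.57 and -1.02, and the dynein light chain Dynll1 at 0.86, above 0 on each plate, and -0.71. The tubulin median of -0.85 at the high dose stands beside -0.78 for the actin genes. The list of cofactors and smooth-muscle targets of MRTF and SRF held 18 names, which give some genes under both an older and a newer name. Of these names 14 were in the table, and none of those genes was found in 10% of kept cells.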

How the data were processed

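The authors deposited FPKM values and a gene length in bases for 55364 genes and 144 cells. Per the submitters' processing notes, the tools named were STAR 2.7.2b, featureCounts 1.6.1, Trimmomatic 0.36, Trim Galore 0.4.4 and cutadapt 1.16, and the build was GRCm38.p6 (mm10). Settings are not given in the sources used here, nor is the use of strand, and overlapping genes cannot be told apart. Per the labels' protocols, cDNA was amplified in the lysis tube and tagmented with Nextera XT; no molecular identifiers were named. FPKM multiplied by length summed to the same total in each cell. The most frequent product of FPKM and length above 0 in a cell was taken as 1 read, which gave its number of assigned reads. On this basis a median of 52.9% of values were whole reads within 0.01 read, so no count model was used. For thinning, values were rounded to whole reads.

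The members, lists and markers were chosen with earlier results of these data known. Kept cells, 140 of 144, had 1000 or more genes at an FPKM of 1 or more. Values were log2(FPKM + 1), which understates differences of low genes; a gene was measured if found in 10% of kept cells. No 2 cells correlated above 0.62. Members named were the 6 of highest level, for each comparison the 6 with the largest difference of 1 sign on the 3 plates, up to 3 opposite to the median, Srf and the paralog pairs; for lists, the 2 with the largest difference per dose, Rock1 and Rock2. Other members were named after their values were seen, to complete their roles. Of the members, 22 share exons with another gene model and 18 have processed copies by sequence (BLAST 2.17.0, at least 90% identity over 50% of the copy); adding the copies' reads shifted no difference by more than 0.094. Python 3.11.15, numpy 2.4.6, pandas 2.3.3, scipy 1.17.1 and matplotlib 3.10.9 were used, and the calculations were tested on simulated data. Alternatives were other pseudocounts, filters, cells, members and scales, thinning to 300000 reads, plate as a block and leaving out each plate.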

Additional observations from a re-analysis of the deposited data

How the results depend on the processing

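In all 258 alternative values were computed. A value counted as moved when it shifted by more than the SD of the 3 plate values, and a count when it changed by over 1.5 times. Of the values for the members together 78 stayed, 35 moved and 13 changed sign; of the shares of cells with single genes 109 stayed and 23 moved; 18 of these 132 values had the sign opposite to the one reported, none of them where the intervals of the groups did not overlap. The causes were not tested, beyond what each setting's construction shows. The median difference of all genes was below 0 in every alternative at the high dose and between the doses. That of the members was below 0 in every alternative for each comparison. At the low dose (-0.486) it was -0.718 and -0.178 with pseudocounts of 0.1 and 10, -0.383 without a filter, -0.597 for members in 50% of cells, -0.0698 as the ratio of mean FPKM, -0.106 in cells with 2000 genes, -0.403 in all cells, -0.275 adjusted for detected genes, -0.583 thinned, -0.277 without members with shared exons or a named copy, and -0.272 without those with shared exons or a copy by sequence, a setting added after seeing the data. Without plate 1, 2 or 3 it was -0.512, -0.35 and -0.379. At the high dose (-0.779) it was -0.397 with a pseudocount of 10, -0.161 as the ratio, -0.291 in cells with 2000 genes, -0.227 adjusted and -1.09 without members with shared exons or a named copy, and between -0.919 and -0.672 without 1 plate. Between the doses (-0.288) it was -0.00735 adjusted, and between -0.36 and -0.126 without 1 plate, the last without plate 1. In that contrast the members' median lay above that of all genes in some settings. These were a pseudocount of 0.1 (-0.256 against -0.304), adjusted (-0.00735 against -0.0547) and without plate 1 (-0.126 against -0.167).

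The number of members lower by 1 or more at the low dose (6) was 12 and 0 with pseudocounts of 0.1 and 10 (all genes 9.84% and 0.303%), 1 in cells with 2000 genes (2.33%, near the 1.37% of all genes), 3 adjusted (all genes 0.971%) and 10 thinned (4.33%). It was 2 of 20 members and 1 of 15 without those that share exons or have a named copy or a copy by sequence (all genes 2.92%). Without 1 plate, where only 2 plates had to be below 0, it was 6 to 9 (all genes 4.74% to 5.39%). At the high dose (14) it was 2 with a pseudocount of 10 (all genes 0.861%), 6 as the ratio (12.3%), 5 in cells with 2000 genes (4.91%), 5 adjusted (1.32%), and 8 of 20 and 5 of 15 in those smaller sets (8.08%). Without 1 plate it was 13 to 21 (all genes 9.77% to 12.2%), the 21 without plate 2, which also gave the 12.2%. Between the doses (6) it was 2 with a pseudocount of 10 (all genes 0.449%), 3 adjusted (1.37%) and 2 of 15 (3.36%). Without 1 plate it was 4 to 9 (all genes 5.62% to 6.07%), the 9 without plate 2. The differences of the summed FPKM lay so near 0 that they changed sign. At the low dose (0.0156) it was -0.0931 in cells with 2000 genes, -0.0601 adjusted, -0.0747 without cells with 3 rod markers, -0.0632 thinned, and -0.0524, -0.0811 and 0.184 without plate 1, 2 or 3. At the high dose (-0.0143) it was 0.0559 in cells with 2000 genes, 0.0744 without Tmsb4x and Actb, and -0.0678 to 0.0499 without 1 plate. Between the doses (-0.0299) it was 0.149 in cells with 2000 genes, 0.0266 without cells with 3 rod markers, and 0.102, 0.0133 and -0.209 without plate 1, 2 or 3. With plate as a replicate block the medians were -0.495, -0.785 and -0.293 and no count changed. Srf, Actn1 and Vcl were detected in only 6, 6 and 2 cells, too few to compare.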

Other observations

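Many actin gene values lay above 0 and below the FPKM of 1 used for detection. Lcp1 was above 0 in each of the 140 kept cells, but 44 of them held less than 1, 14 held 1 to 10 and 82 held 10 or more. Msn stood in this range in 43 cells, Tln1 in 54, Flna in 63 and Myh9 in 61, while Tmsb4x and Actb had no such cell. Over the 29 members found in 50% of cells the median share of such cells was 17.1% (range 0 to 38.6%), against 10.7% (0 to 45%) over the 1517 genes in that range. Counted at any value above 0, Myl12a was present in 100% of the cells of each group and Msn in 100%, 100% and 93.6%.

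The sum of the capping genes did not follow the median of its members. The 4 capping genes summed per cell were 0.44 higher at the low and 0.69 higher at the high dose than in PBS, above 0 on every plate at both doses (0.37, 0.49 and 0.48; 0.67, 0.41 and 1.01), although 3 of the 4 genes taken singly had a difference below 0 at each dose. The 7 adhesion and membrane linkage genes summed were 1.20 and 1.23 lower, with plate 1 at -2.73 and -2.37 and plate 3 at -0.23 and -0.35.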
